A study of Rattus norvegicus with 8 samples.

Results

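The Slit, Robo and netrin guidance genes were followed in rat hippocampal slice cultures, explants of hippocampus kept in a dish, from which the pyramidal cell fields CA3 and CA1 had been cut out. The family comprised 10 genes, namely Slit1, Slit2, Slit3, Robo1, Robo2, Ntn1, Dcc, Unc5a, Unc5b and Unc5c, of 14218 genes named by a probe set with a single gene symbol on the arrays. All 18 probe sets that carry a symbol of these genes were taken, of 31099 on the array, and all 10 genes matched a rat RefSeq gene by identifier. Each of the 8 arrays held total RNA pooled from 15 cultures at 7 days. The labels put 1 array in the CA3 lesion group, 1 in the CA1 lesion group, 3 in the CA3 control group and 3 in the CA1 control group. They give no strain, sex or age, do not describe the lesion or say when the count of days began, and do not tell whether the pools came from separate animals. The p-values below therefore reflect the spread among the arrays, which may be technical.

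Slits are large secreted proteins that bind Robo receptors and mostly repel growing axons. Netrin-1, encoded by Ntn1, is a secreted cue that attracts axons through the receptor Dcc and repels them through receptors of the Unc5 family, alone or together with Dcc. In the developing hippocampus these pathways help to set the course of commissural and entorhinal axons, and many of the genes stay active in the adult brain.

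All arrays had a 2% trimmed mean near 2501, from which scaling to a common level was inferred. The median intensity was 738 in the CA3 lesion array, 635 in the CA1 lesion array, 561 to 658 in CA3 controls and 634 to 815 in CA1 controls. Probe-set values are linear intensities, compared here as log2(intensity + 16), and a probe set was tested when its mean over the 8 arrays was not among the lowest 40% of the array. Of the 18 probe sets 9 were tested, from the 6 genes Slit1, Slit2, Slit3, Robo2, Dcc and Unc5c. The other 9, among them every probe set of Robo1, Ntn1, Unc5a and Unc5b, lay below this filter, and their values are given without a test. The field labels were borne out by most marker genes. All 4 tested CA1 markers were lower in CA3 controls, 3 of them (Pou3f1, Fibcd1 and Mpped1) with an adjusted p under 0.05 in limma. Of 5 tested CA3 markers 4 were higher, 2 of them (Nectin3 and Cpne4) with such a p, while Coch was lower (-0.88).

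Slit2 and Unc5c were higher in CA3 than in CA1 control cultures, and no other guidance gene of the family passed the test. Slit2, a secreted ligand of Robo receptors, was 3.68-fold higher, and Unc5c, a netrin receptor that mediates repulsion, was 2.72-fold higher. In each gene a second, dimmer probe set showed a difference of the same sign that did not pass. The 2 calls among 9 tested probe sets, both higher in CA3, stand beside 0.285% of all 18625 tested probe sets called higher in CA3, 0.242% called lower and 0.526% called in either direction. The median difference of the 9 probe sets was 0.49 on the log2 scale, beside -0.04 over all tested probe sets. The filter shaped this median, since it kept Slit2 1395986_at (1.90) and left out Ntn1 1368880_at (-3.66). Slit2, Robo2 and Unc5c each entered it with 2 probe sets. The median therefore gives no support for a direction of the family.

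**Figure D1:**
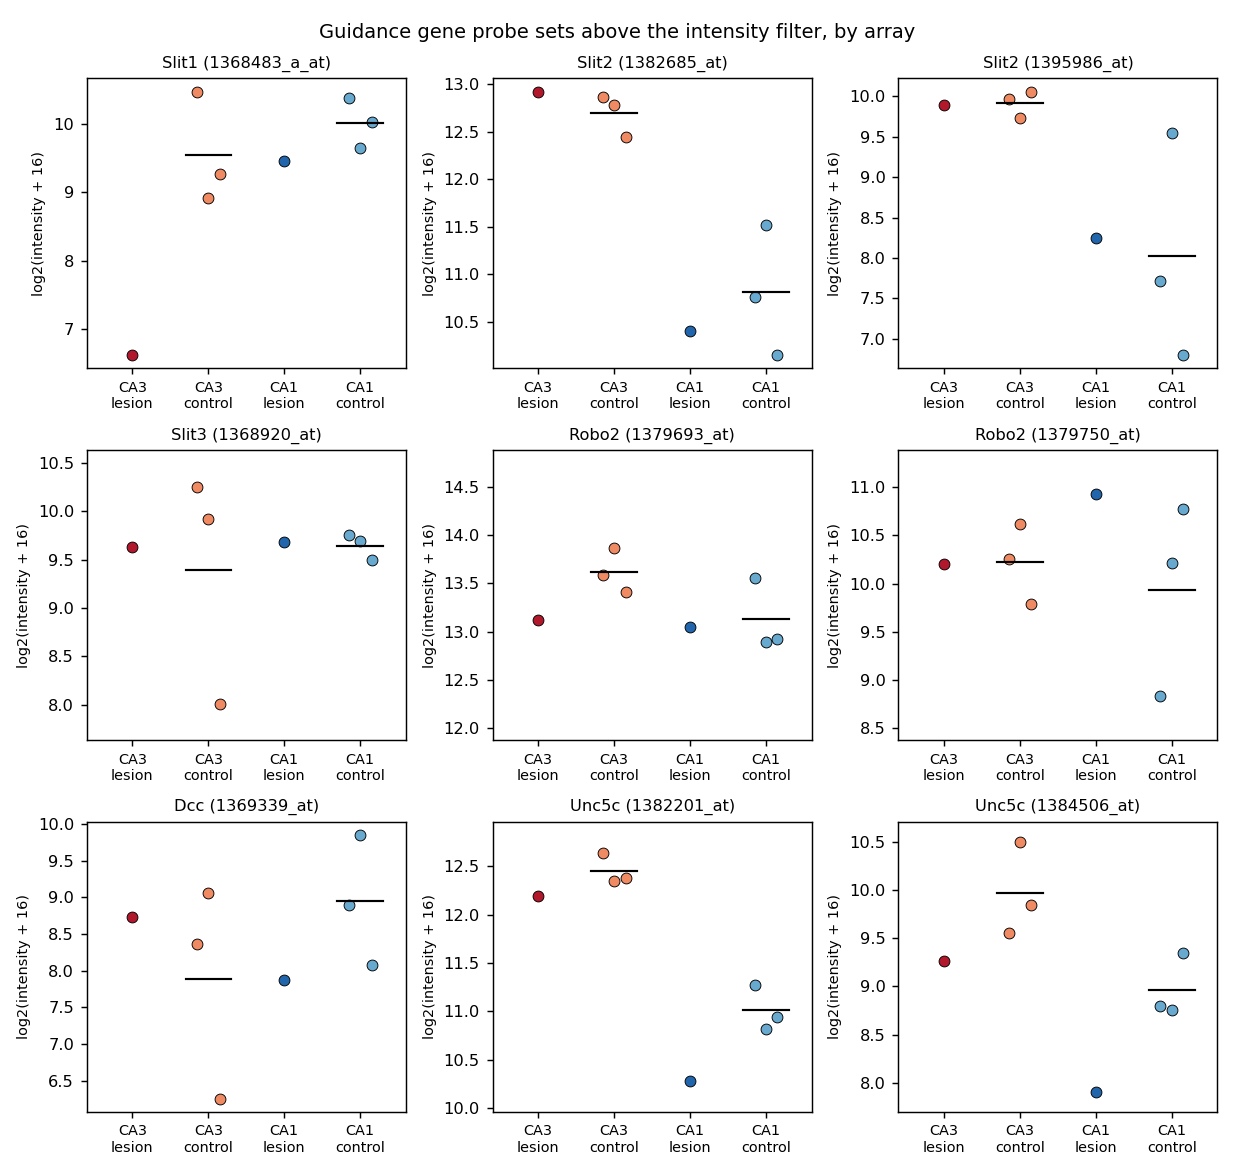
Each panel plots log2(intensity + 16) of 1 tested probe set for every array in the 4 groups, and the black bar is the mean of 3 control arrays. For both tested Slit2 probe sets and both Unc5c probe sets the CA3 controls lie above all CA1 controls, whereas the groups overlap in Slit1, Slit3, Robo2 and Dcc.

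Among the ligands, the brightest Slit2 probe set (1382685_at) had intensities of 7432, 7016 and 5542 in CA3 controls 1 to 3, against 1722, 2926 and 1124 in CA1 controls 1 to 3. The lowest CA3 control was above the highest CA1 control, and the CA1 controls were more spread out than the CA3 controls. The log2 means were 12.69 ± 0.22 in CA3 controls and 10.81 ± 0.69 in CA1 controls (SD, n = 3 arrays each). The difference was 1.88 ± 0.32 (SE), with a 95% interval of 1.16 to 2.60 and a limma adjusted p = 0.0367 over all tested probe sets. This call was lost without CA3 control 1 (adjusted p = 0.205), CA3 control 2 (0.229), CA1 control 1 (0.145) or CA1 control 3 (0.0633), with differences of 1.80, 1.84, 1.86 and 1.55. It was also lost with no intensity trend in the variances (adjusted p = 0.294) and when the 3 Slit2 probe sets were averaged, which gave a difference of 1.18 (adjusted p = 0.580).

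A second Slit2 probe set (1395986_at) had intensities of 985, 831 and 1049 in CA3 controls, against 194, 732 and 95.5 in CA1 controls. Here too the groups did not overlap, but CA1 control 2 came close to the lowest CA3 control. The difference was 1.90 ± 0.72 (SE, n = 3 arrays in each field, limma adjusted p = 0.520). The third Slit2 probe set (1369346_at) lay below the filter, with 527, 54.2 and 182 in CA3 controls, against 563, 68.5 and 234 in CA1 controls. Its groups overlapped throughout, so the probe sets of this gene did not all show the field difference. The deposited values do not say which part of the transcript each probe set reads.

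The RefSeq spans of Slit2 and Slit3 each contain a gene for the microRNA miR-218a, and no other gene of the family holds a microRNA of the RefSeq table. The Slit2 span holds Mir218-1 and, on the opposite strand, Mir3565, whereas the Slit3 span holds Mir218-2. Mature microRNAs were not measured on these arrays, and no probe set carries these symbols. The mature sequences of Mir218-1 and Mir218-2 (RefSeq, GRCr8) are shown because they lie inside 2 of the ligand genes, and capitals mark the seed, bases 2 to 8. The first is shared by both copies, at chr14:66922413-66922433 on the minus strand inside Slit2 and at chr10:20572547-20572567 on the plus strand inside Slit3.
rno-miR-218a-5p: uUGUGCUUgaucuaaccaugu
rno-miR-218a-1-3p (Slit2): aAACAUGGuuccgucaagcac
rno-miR-218a-2-3p (Slit3): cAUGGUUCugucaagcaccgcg
The 5p arm and its seed are thus identical in the copies inside Slit2 and Slit3, while the seeds of the 3p arms differ.

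Slit1 and Slit3, the other Slit ligands, showed no field difference that passed the test. Slit1 (1368483_a_at) had intensities of 1405, 468 and 600 in CA3 controls, against 1316, 784 and 1025 in CA1 controls. The difference was -0.46 with a 95% interval of -1.64 to 0.72 (limma adjusted p = 0.855), so a difference as large as that of Slit2 in favour of CA3 lay outside the interval. Slit3 (1368920_at) had 1208, 958 and 242 in CA3 controls, against 848, 810 and 707 in CA1 controls. CA3 control 3 alone lay far below the rest. The Slit3 difference was -0.25, with an interval of -1.54 to 1.04 (limma adjusted p = 0.936), and its sign turned without that array (0.44) and with quantile normalisation (0.04).

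Netrin-1 had 3 probe sets, all below the filter, and they ran in different directions. Probe set 1368880_at had intensities of 43.1, 22.3 and 22.8 in CA3 controls, against 428, 847 and 448 in CA1 controls. The groups did not overlap and lay 3.66 log2 units apart, lower in CA3, where the values were close to the pseudocount of 16. Such a separation with CA3 below CA1 was seen in 8.13% of the 12417 probe sets under the filter, and with no filter this probe set had a limma adjusted p = 0.136 (n = 3 arrays per field). The other Ntn1 probe sets overlapped between the fields. Probe set 1398269_at had 396, 271 and 51.6 in CA3 controls, against 47.8, 40.5 and 121 in CA1 controls, and 1376128_at had 467, 209 and 363 in CA3 controls, against 632, 130 and 136 in CA1 controls. No direction can therefore be given for Ntn1 as a gene.

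**Figure D2:**
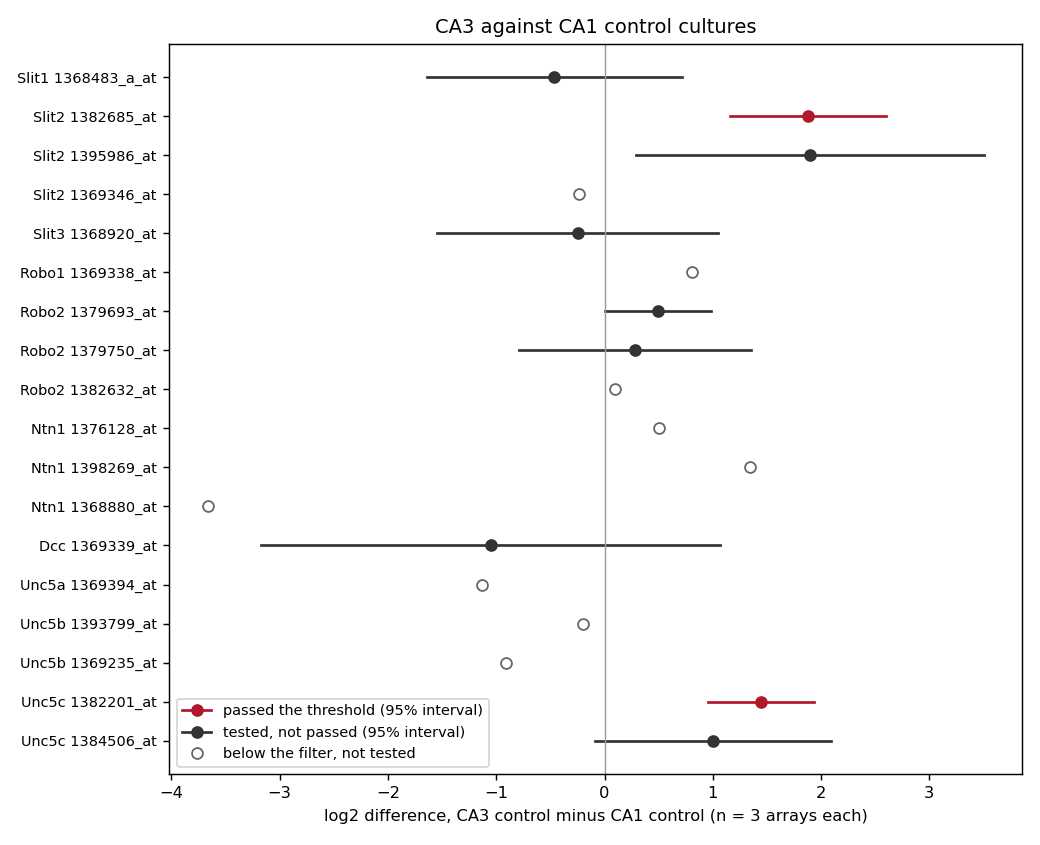
Points are the log2 differences between CA3 and CA1 controls (3 arrays each) for all 18 probe sets, with 95% intervals from limma for the 9 that were tested and open circles for the 9 below the filter. The brightest probe sets of Slit2 and Unc5c, in red, passed the threshold at 1.88 and 1.45.

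Among the receptors, the brighter Unc5c probe set (1382201_at) had intensities of 6358, 5219 and 5304 in CA3 controls, against 2452, 1787 and 1956 in CA1 controls. Both groups were tight and far apart. The log2 means were 12.46 ± 0.16 in CA3 controls and 11.01 ± 0.23 in CA1 controls (SD, n = 3 arrays each). The difference was 1.45 ± 0.22 (SE), with a 95% interval of 0.96 to 1.93 and a limma adjusted p = 0.0203. The call was lost without CA3 control 1 (adjusted p = 0.118), CA3 control 2 (0.126), CA1 control 2 (0.124) or CA1 control 3 (0.0565), while the difference stayed between 1.35 and 1.58 over all arrays left out in turn. It was also lost with no intensity trend (adjusted p = 0.177) and with both Unc5c probe sets averaged (1.22, adjusted p = 0.142).

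The second Unc5c probe set (1384506_at) had 737, 1426 and 905 in CA3 controls, against 429, 415 and 633 in CA1 controls. Its groups did not overlap either, and its difference of 1.00 ± 0.49 (SE, n = 3 arrays per field) did not pass (limma adjusted p = 0.632). In all, the CA3 controls lay above every CA1 control in 4 of the 9 tested probe sets, those of Slit2 and Unc5c, against 6.06% of all tested probe sets. In 0 of the 9 did the CA3 controls lie below every CA1 control, against 8.85% of all tested probe sets. The filter shaped both counts, so they give no support for a direction of the family. Ntn1 1368880_at, with CA3 below CA1, was left out, with log2 means of 5.48 in CA3 and 9.14 in CA1 controls. Slit2 1395986_at was kept, with 9.92 in CA3 and 8.02 in CA1 controls, where the filter limit was 8.35.

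The other Unc5 genes were dim. Unc5a (1369394_at) had 169, 65.6 and 84.6 in CA3 controls, against 93.0, 179 and 736 in CA1 controls. Unc5b had 425, 26.6 and 127 in CA3 controls, against 26.5, 663 and 125 in CA1 controls by 1393799_at, and 66.1, 23.3 and 25.9 in CA3 controls, against 22.0, 227 and 81.6 in CA1 controls by 1369235_at. The controls of a field thus differed from each other by as much as the fields did, and no field difference was detectable in either gene.

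Dcc, the receptor for attraction by netrin, had intensities of 313, 516 and 60.5 in CA3 controls, against 462, 905 and 255 in CA1 controls (1369339_at). The groups overlapped, and the difference of -1.05 had a 95% interval of -3.17 to 1.07 (limma adjusted p = 0.806), which leaves room for a large difference in the direction of CA1. The probe set lay just above the filter, with a mean log2 value of 8.39 against a limit of 8.35.

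Robo2, a receptor for Slits, was bright in both fields by its main probe set (1379693_at), with intensities of 12305, 14920 and 10848 in CA3 controls, against 12065, 7592 and 7786 in CA1 controls. CA1 control 1 lay inside the CA3 range, and the other CA1 controls lay below it. The difference was 0.49, with a 95% interval of 0.0035 to 0.98 (limma adjusted p = 0.598). The second Robo2 probe set (1379750_at) had 1208, 1551 and 868 in CA3 controls, against 442, 1167 and 1727 in CA1 controls, a difference of 0.28 with an interval of -0.79 to 1.36 (limma adjusted p = 0.909). The third (1382632_at), below the filter, had 369, 38.7 and 68.3 in CA3 controls, against 22.2, 364 and 83.6 in CA1 controls. Robo1, the other Slit receptor of the family, also lay below the filter, with 463, 119 and 453 in CA3 controls, against 362, 272 and 35.8 in CA1 controls (1369338_at), and its groups overlapped.

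**Figure D3:**
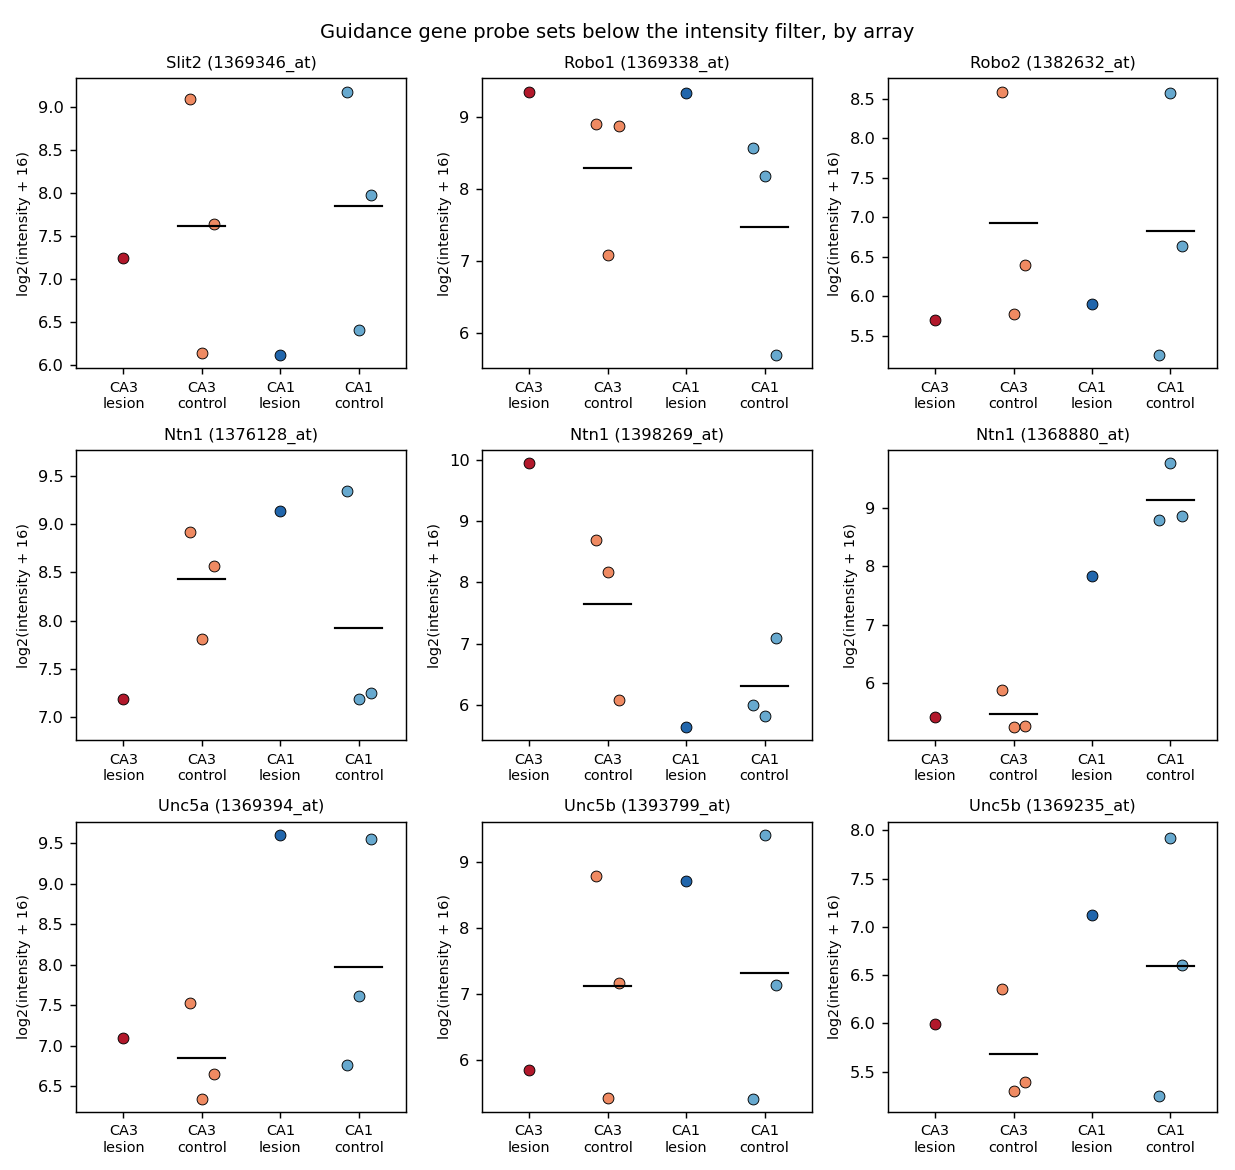
Each panel plots log2(intensity + 16) of 1 probe set below the intensity filter for every array in the 4 groups, and the black bar is the mean of 3 control arrays. Arrays of the same group are often several log2 units apart, and only Ntn1 1368880_at separates the control fields, with CA3 below CA1.

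The field difference of Slit2 and Unc5c was also present between the lesion arrays, which did not enter the control means. Slit2 (1382685_at) had 7734 in the CA3 lesion array, against 1337 in the CA1 lesion array, a ratio of 5.73 after addition of the pseudocount. Unc5c (1382201_at) had 4661 in the CA3 lesion array, against 1229 in the CA1 lesion array, a ratio of 3.76. Their dimmer probe sets gave ratios of 3.11 for Slit2 (1395986_at) and 2.56 for Unc5c (1384506_at). With 1 array on each side these ratios have no test, and 97 of the 98 probe sets called in the controls (99%) kept their sign between the lesion arrays, a share that takes in far more than the guidance genes. Among all tested probe sets the share with the same sign was 56.9%.

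Markers of other cells also differed between the fields. No value of a marker gene was 0. The 7 meningeal and fibroblast genes, of which 6 were higher in CA3 controls and Ptgds was called, summed to intensities of 27369 to 33187 in CA3 controls and 6732 to 12767 in CA1 controls. Without Ptgds the sums overlapped, at 9528 to 16204 in CA3 controls and 6625 to 12148 in CA1 controls. The 10 pan-neuronal genes summed to 379547 to 527334 in CA3 controls and 256054 to 369386 in CA1 controls, with 9 of 10 higher in CA3 and 1 called. The 9 interneuron genes summed to 56464 to 70251 in CA3 controls and 74498 to 131196 in CA1 controls, with 6 of 8 tested genes lower in CA3. The 1 called was Cck (-2.16), with 4548 to 7874 in CA3 controls and 22234 to 33964 in CA1 controls. Vip (-1.60, limma adjusted p = 0.0574), Sst (-0.76), Npy (-0.63) and Slc32a1 (-0.19) were lower in CA3 without passing. Gad1 (-0.03) hardly differed, and Pvalb (0.004) and Calb2 (0.23) were not lower. The ratio of 3' to 5' signal for Gapdh, a gauge of RNA degradation that is higher in poorer RNA, was 3.75 to 3.93 in CA3 controls and 3.71 to 5.0 in CA1 controls. The part of these markers and of RNA quality in the differences of Slit2 and Unc5c was not tested, and in dissected tissue fewer cells of a type and less RNA per cell cannot be told apart.

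Across the 8 arrays the genes whose pattern was most like that of Slit2 (1382685_at) were Dmrtc1c1, Rnf128 and Hpcal1, with Pearson r of 0.985, 0.978 and 0.977 over log2 values. For Unc5c (1382201_at) they were Cst6, Flad1 and Tmem71, with r of 0.987, 0.984 and 0.984. Of these 6 genes Cst6 (3.13) and Tmem71 (3.41) were themselves called higher in CA3 controls. The points share the field they came from, and the most alike were picked from all tested genes, so the values describe these arrays only.

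No gene of the remaining pathway passed the test between the fields, although several had small p-values before adjustment. Lists of other ligands, other receptors, Robo effectors and netrin receptor effectors held 60 genes, of which 50 had a probe set with a single symbol and 47 were tested by their brightest probe set. Of these 47, limma called 0 higher and 0 lower in CA3 controls, beside 0.526% of all tested probe sets called. Before adjustment the p was under 0.05 for 11 of the 47, beside 1548 of all 18625 tested probe sets. The 47 are the brightest probe sets of their genes, whereas the 18625 include dimmer ones, so these shares are not matched. The median difference was 0.01, beside -0.04 over all tested probe sets, and 24 of the 47 had a positive difference.

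Among the 16 Robo effectors tested, Usp33, a deubiquitinase known to act on Robo1, came closest at 0.90 ± 0.17 (SE, n = 3 arrays in each field, limma adjusted p = 0.0672). The others with the smallest p were the adaptor Nck2 (-0.46), the Ena/VASP protein Evl (-0.57) and the kinase Pak1 (-0.36), with adjusted p-values of 0.481, 0.562 and 0.623. Among the 8 other ligands tested, netrin-G1 (Ntng1), a membrane-anchored relative of the netrins, differed by -1.02 ± 0.22 (SE, n = 3 arrays in each field, limma adjusted p = 0.111). It was followed by the neogenin ligand Rgmb (0.63, adjusted p = 0.308), Flrt1 (-0.92, 0.563) and Flrt3 (0.77, 0.568). Of the 6 other receptors tested, the semaphorin co-receptor Nrp1 differed by 0.95 ± 0.20 (SE, n = 3 arrays in each field, limma adjusted p = 0.102), with Plxna1 at 0.71, Dscam at -0.95 and the netrin and Rgm receptor Neo1 at -0.30 (adjusted p = 0.646, 0.787 and 0.804). Of the 17 netrin receptor effectors tested, the actin-binding protein Ablim1 differed by 0.81, Wasl by -0.43, the myosin light chain kinase Mylk by -0.55 and Dock1 by -0.47, with adjusted p-values of 0.223, 0.432, 0.486 and 0.678.

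**Figure D4:**
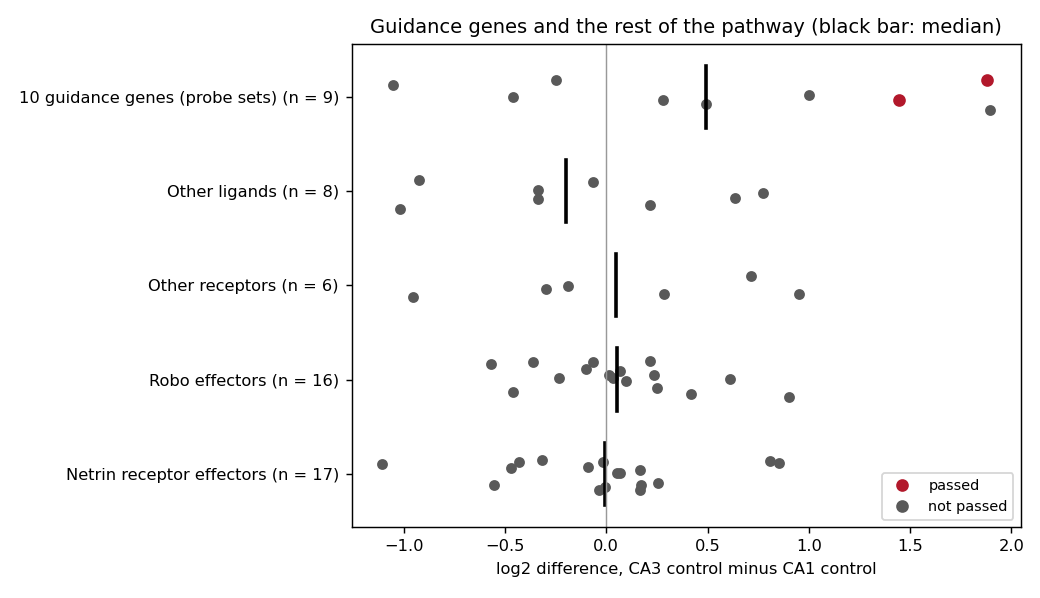
Each point is the log2 difference between CA3 and CA1 controls (3 arrays each) of 1 tested probe set of the family, or of the brightest probe set of 1 gene in the pathway lists, and black bars are medians. The list medians lie between -0.20 and 0.05, and the 2 red points, Slit2 and Unc5c, are the calls.

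No guidance gene passed the test for the lesion. In the mean lesion effect over both fields 0 of the 9 tested probe sets were called by limma, beside 0% of all tested probe sets, and before adjustment the p was under 0.05 for 2 of the 9 and 1193 of all 18625. The same count of 0 held for the CA3 lesion array alone, the CA1 lesion array alone and the difference of the lesion effects between the fields, with 1 unadjusted p under 0.05 in each and 0% of all tested probe sets called. Each lesion group is a single array, assumed in the fit to vary like the controls. Of the 9 tested probe sets 3, of Slit1 and Unc5c, lay below all controls of their field in both lesion arrays and 0 lay above them in both, beside 8.03% and 7.98% of all tested probe sets.

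Slit1 had an intensity of 82.8 in the CA3 lesion array, against 1405, 468 and 600 in CA3 controls. It had 686 in the CA1 lesion array, against 1316, 784 and 1025 in CA1 controls. Both lesion arrays were thus below every control of their field, narrowly in CA1. The lesion effect was -2.93 ± 0.75 in CA3 (SE, 1 lesion array against 3 controls, limma adjusted p = 0.580) and -0.56 ± 0.75 in CA1 (limma adjusted p = 0.999). The difference of these effects, -2.37 with a 95% interval of -4.73 to -0.0054, did not pass after adjustment (limma adjusted p = 1.00). The Gapdh 3'/5' ratio was highest of all in the CA3 lesion array, at 5.23 against 3.75 to 3.93 in CA3 controls, whereas that of Actb was 19.8 there, inside the 15.0 to 21.4 of CA3 controls. The part of RNA quality in the Slit1 value was not tested.

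Unc5c (1382201_at) had 4661 in the CA3 lesion array, against 6358, 5219 and 5304 in CA3 controls, and 1229 in the CA1 lesion array, against 2452, 1787 and 1956 in CA1 controls. The mean lesion effect was -0.50 ± 0.22 (SE over 2 lesion and 6 control arrays, adjusted p = 0.771 in limma). By the second probe set (1384506_at) Unc5c had 600 in the CA3 lesion array, against 737 to 1426 in CA3 controls, and 225 in the CA1 lesion array, against 415 to 633 in CA1 controls, with a mean effect of -0.88 ± 0.49 (limma adjusted p = 0.806). Both probe sets of this gene were therefore low in both lesion arrays, without passing the test.

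Slit2 lay near or inside its control range in both fields by both tested probe sets. Its bright probe set (1382685_at) had 7734 in the CA3 lesion array, against 5542 to 7432 in CA3 controls, and 1337 in the CA1 lesion array, against 1124 to 2926 in CA1 controls. It was thus just above the control range in CA3 and inside it in CA1. The mean lesion effect was -0.09, with a 95% interval of -0.81 to 0.62 (limma adjusted p = 0.970). By 1395986_at Slit2 lay inside the control range of both fields, with 931 in the CA3 lesion array and 288 in the CA1 lesion array. The mean lesion effect of 1395986_at was 0.10, with a wide 95% interval of -1.51 to 1.70.

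**Figure D5:**
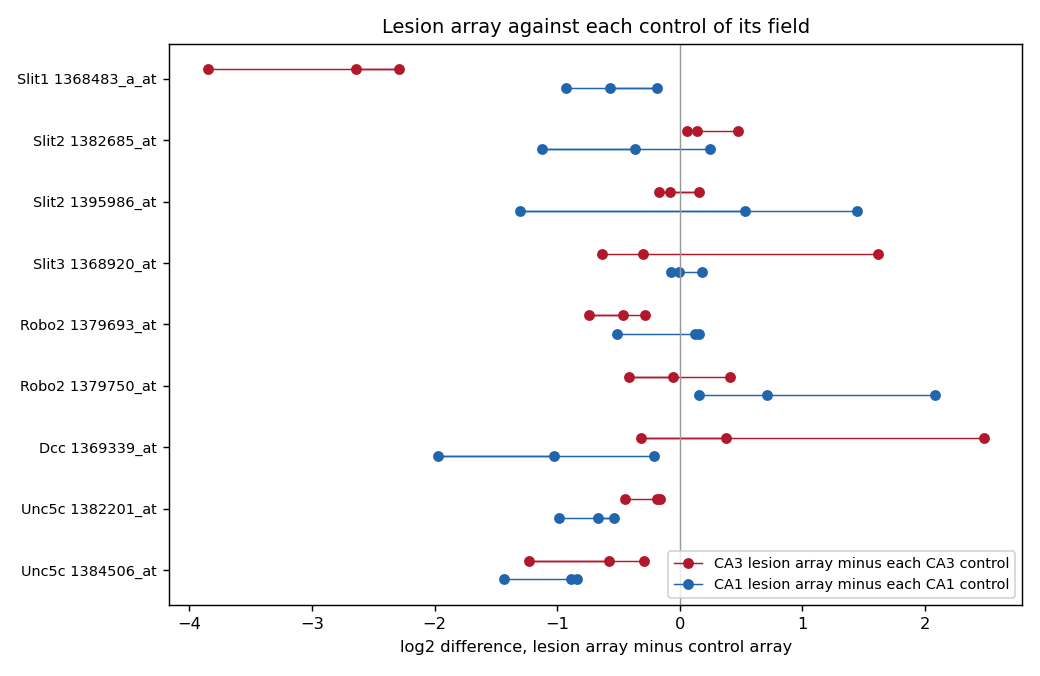
Points are log2 differences between the lesion array of a field and each of its 3 control arrays, for the 9 tested probe sets, with CA3 in red and CA1 in blue. All points of Slit1 and of both Unc5c probe sets lie below 0, and the CA3 points of Slit1 lie furthest out.

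The other tested genes showed no common direction. Robo2 (1379693_at) had 8928 in the CA3 lesion array, below the 10848 to 14920 of CA3 controls, and 8479 in the CA1 lesion array, within the 7592 to 12065 of CA1 controls. Its second probe set (1379750_at) had 1161 in the CA3 lesion array, within the 868 to 1551 of CA3 controls, and 1926 in the CA1 lesion array, above the 442 to 1727 of CA1 controls. Slit3 had 775 in the CA3 lesion array, against 242 to 1208 in CA3 controls, and 806 in the CA1 lesion array, against 707 to 848 in CA1 controls. Dcc had 411 in the CA3 lesion array, against 60.5 to 516 in CA3 controls, and 219 in the CA1 lesion array, against 255 to 905 in CA1 controls. Mean lesion effects of these 4 probe sets ran from -0.28 to 0.48, and the adjusted p-values of all 9 tested probe sets ran from 0.771 to 0.988.

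Below the filter, Robo1 had 636 in the CA3 lesion array, against 119 to 463 in CA3 controls, and 628 in the CA1 lesion array, against 35.8 to 362 in CA1 controls. It lay above all controls in both fields, by 1.46 log2 units on average, with limma adjusted p = 0.908 when no filter was used. Among all tested probe sets 7.98% lay above all controls in both lesion arrays, and the share below the filter was not counted. Unc5a had 121 in the CA3 lesion array, against 65.6 to 169 in CA3 controls, and 760 in the CA1 lesion array, against 93.0 to 736 in CA1 controls. The dim Slit2 probe set (1369346_at) had 136 in the CA3 lesion array, within the 54.2 to 527 of CA3 controls. In the CA1 lesion array it had 53.2, below the 68.5 to 563 of CA1 controls. The dim Robo2 probe set (1382632_at) had 35.8 in the CA3 lesion array, just below the 38.7 to 369 of CA3 controls. In the CA1 lesion array it had 43.8, within the 22.2 to 364 of CA1 controls. Ntn1 had no common direction, with 970, 130 and 26.8 in the CA3 lesion array and 33.8, 548 and 212 in the CA1 lesion array by 1398269_at, 1376128_at and 1368880_at. The first of these lay above all CA3 controls in the CA3 lesion array and below all CA1 controls in the CA1 lesion array, and such opposite positions were seen in 13.7% of the probe sets below the filter. Unc5b lay within the range of its controls in both fields by both probe sets, with 41.7 and 48.0 in the CA3 lesion array and 403 and 123 in the CA1 lesion array.

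Summed markers of glia and neurons also differed between lesion and control arrays, although 0 genes of these lists were called in any lesion contrast. The 10 microglia genes summed to 79701 in the CA3 lesion array, against 6351 to 61827 in CA3 controls, and to 108274 in the CA1 lesion array, against 6414 to 76005 in CA1 controls. The 7 myelin genes summed to 569878 in the CA3 lesion array, against 75996 to 401808 in CA3 controls, and to 529683 in the CA1 lesion array, against 58482 to 577686 in CA1 controls, which hold it. Some microglia genes rose with the replicate number in controls, such as C1qa at 590, 2254 and 18254 in CA3 controls 1 to 3. Others did not rise at each step, such as Aif1 at 356, 153 and 3241. Control values of the 7 myelin genes rose with the replicate number in both fields. Mobp had 4597, 33668 and 67074 in CA3 controls 1 to 3, and 3571, 28096 and 83875 in CA1 controls 1 to 3. Both lesion arrays carry number 1, with Mobp at 65660 in CA3 and 69412 in CA1. The 7 astrocyte genes summed to 1327570 in the CA3 lesion array, against 801350 to 921515 in CA3 controls, and to 1199300 in the CA1 lesion array, inside the 899870 to 1261860 of CA1 controls, and all 7 had a positive mean lesion effect. The 10 pan-neuronal genes summed to 371302 in the CA3 lesion array, against 379547 to 527334 in CA3 controls, and to 255068 in the CA1 lesion array, against 256054 to 369386 in CA1 controls, and all 10 had a negative mean lesion effect. The sums thus lay below the lowest control in both fields, barely so in CA1. The 6 CA3 pyramidal markers summed to 22709 in the CA3 lesion array, against 24310 to 33729 in CA3 controls, and the 9 interneuron genes to 50466, against 56464 to 70251. In CA1 the interneuron sum was 73779 in the lesion array, against 74498 to 131196 in controls. Not every neuronal list was low. The 4 CA1 pyramidal markers on the array summed to 56843 in the CA1 lesion array, inside the 47664 to 101504 of CA1 controls. The 4 dentate granule markers on the array summed to 44343 in the CA3 lesion array, above the 31503 to 39484 of CA3 controls, and to 47121 in the CA1 lesion array, inside the 28008 to 64275 of CA1 controls. The part of all these markers in the low Slit1 and Unc5c values of the lesion arrays was not tested. Of the 47 other pathway genes tested, 0 were called in the mean lesion effect, with a median of -0.0038, beside 0.02 over all tested probe sets.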

How the data were processed

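Total RNA of 8 arrays was compared in 4 groups taken from the sample titles. The deposited values are linear intensities, 1 per probe set and array. All arrays had a 2% trimmed mean near 2501, from which scaling by the authors was inferred. The software is not given in the sources used here. Precision is limited by the number of arrays.

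Gene symbols came from the platform annotation. After removal of 57 control probe sets, values were converted to log2(intensity + 16), so fold changes of dim probe sets are understated, and 18625 probe sets at or above the 40th percentile of mean log2 value were fitted with limma 3.58.1 (R 4.3.3), 1 coefficient per group, an intensity trend in the variances and 4 residual degrees of freedom. P-values were adjusted by Benjamini-Hochberg over all of them, with a threshold of 0.05. All 18 probe sets of the 10 genes are reported; each pathway list is illustrated by its 4 genes of smallest p, and for each called gene the 3 most alike. The genes and lists were chosen with earlier results of these data known. Results were recomputed with pseudocounts of 1 and 64, with quantile normalisation, with a 60th percentile filter or none, with no intensity trend, and with the replicate number as a block, and for the controls alone, for averaged probe sets and for each array left out in turn.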

Additional observations from a re-analysis of the deposited data

Results flagged for a closer look

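The Ntn1 probe set 1398269_at had an intensity of 970 in the CA3 lesion array, against 396, 271 and 51.6 in CA3 controls, and 33.8 in the CA1 lesion array, against 47.8, 40.5 and 121 in CA1 controls. The CA3 lesion array lay above all its controls and the CA1 lesion array below all of its own, and the lesion effects differed by 2.97 log2 units. The difference was not tested, because the probe set lay below the intensity filter, where 13.7% of 12417 probe sets had lesion arrays beyond all controls in opposite directions. The other Ntn1 probe sets did not share the pattern.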

How the results depend on the processing

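The count of guidance gene probe sets called between CA3 and CA1 controls, 2 of 9, was 0 with no intensity trend in the variances, 0 with the probe sets of each gene averaged, and 0 to 2 with each array left out. Calls over all 18625 probe sets, 98 in the main fit, were 27, 24 and 96 without CA3 controls 1 to 3 and 47, 24 and 69 without CA1 controls 1 to 3. With averaging 40 of 8530 genes (0.469%) were called. With no trend 0 of 18625 probe sets were called at all, and 1533 had an unadjusted p under 0.05. In the other settings that kept all control arrays, the Slit2 and Unc5c probe sets remained the called ones. All lesion counts among probe sets of the 10 genes stayed at 0 in every setting. The titles share replicate numbers between the fields, and the labels do not say what these numbers stand for. Deviations of same-numbered controls correlated at 0.16, 0.060 and 0.31, above the -0.20 to 0.056 of controls with different numbers. The main fit did not pair them, so its spread includes any difference between the numbered sets. With the replicate number as a block the count stayed at 2, with adjusted p = 0.00186 for Slit2 and 0.00281 for Unc5c, while calls over all tested probe sets numbered 358. Under the block 697 of them were called in the mean lesion effect, 310 in the CA3 lesion effect and 258 in the CA1 lesion effect, none of the 10 genes among them, and Slit1 had a mean lesion effect of -2.38 (adjusted p = 0.0590). Among the 9 tested probe sets, signs turned only where the comparison was not called. In the field difference these were Slit3 with quantile normalisation (0.036), and by single arrays left out Slit3 (-0.68 to 0.44) and Robo2 1379750_at (-0.27 to 0.70). In the mean lesion effect Slit3 turned with the block (-0.35). By single arrays left out, Dcc (-0.52 to 0.0062), Slit2 1382685_at (-0.26 to 0.084), Slit2 1395986_at (-0.21 to 0.48) and Slit3 (-0.21 to 0.35) turned. With probe sets averaged, the gene means of Slit2 (-0.35) and Robo2 (-0.29) had the opposite sign to Slit2 1395986_at and Robo2 1379750_at. Below the filter, the field difference turned for Robo1 without CA1 control 3 (-0.08). The averaged Slit2 field difference (1.18) had the opposite sign to that of 1369346_at alone (-0.23). The causes were not tested. Dim probe sets, including all of Robo1, Ntn1, Unc5a and Unc5b, limit what can be said of those genes.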
